A study of Mus musculus with 12 samples.

Results

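The cytosolic ribosome is built from a large and a small subunit, each a set of ribosomal RNAs wrapped in proteins that are encoded one by one in the nucleus. The genes described here are those proteins' genes in mouse muscle progenitors. They were taken by name and biotype from the table of counts: protein-coding genes whose symbol starts with Rpl or Rps and a number, plus Rplp0, Rplp1, Rplp2 and Rpsa, without the Rps6k kinases. The rule found 94 of the 54100 genes in the table, 57 with large subunit names and 35 with small subunit names. The other 2, Rps19bp1 and Rps23rg1, match the pattern although neither encodes a subunit. Among the large subunit names were 46 core genes, 6 paralogs (Rpl3l, Rpl7l1, Rpl10l, Rpl22l1, Rpl36al and Rpl39l) and 5 copies whose symbols carry the pseudogene suffix. Among the small subunit names were 31 core genes, the paralog Rps27l, the retrogene copy Rps27rt and 2 copies with the pseudogene suffix. The rule itself uses names and biotypes only.

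The cells were fibro-adipogenic progenitors, the Pdgfra+ mesenchymal cells that lie between muscle fibres, sorted from the plantaris, a calf muscle, at 1000 cells per tube. Each of 4 groups had 3 libraries: overloaded and sham-operated muscle of cdKO mice (Pdgfra-CreERT2 with Yap1 flox/flox and with Taz flox/flox), and overloaded and sham-operated muscle of control mice (Pdgfra-CreERT2). All groups carried the Pdgfra-driven, tamoxifen-inducible Cre, and the labels of control mice name no floxed allele. Yap1 and Taz (gene symbol Wwtr1) encode co-activators of transcription that the Hippo pathway holds in check. The sources used here give neither the time from surgery to sampling, nor the age of the mice, nor the number of animals per library. The p-values therefore measure how far these libraries vary, and part of that may be technical.

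Cells make ribosomal proteins in near-equal numbers, since each subunit takes a single copy of most of them, and surplus protein is degraded. Their mRNAs are known as TOP mRNAs: transcription starts at a C within a short run of pyrimidines, and the kinase mTORC1, acting in part through the protein LARP1, sets how strongly such mRNAs are translated. Overload makes muscle grow, and ribosome production in fibres is a known part of that growth. An mRNA level, as measured here, says nothing of how much of it was translated.

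The pyrimidine run can be read in the promoters that RefSeq annotates on GRCm38.p6. Of the 94 genes, 67 had a promoter there, with 79 promoters in all. A run was counted where a C was followed by at least 5 further C or T, on the gene's strand, starting within 10 bases of the annotated start. It was found in 46.8% of the ribosomal protein promoters and in 19.2% of all 32851 promoters. Runs that began exactly at the annotated start were found in 15.2% and 1.70%. The windows below show genes whose values carry the results that follow: 4 core genes that were higher in overloaded muscle (Rps2, Rpl14, Rpl13a and Rps26), the pair Rps27l and Rps27, which behaved differently, and Rpl7l1 and Rplp0, in which no run was found. Each runs 5′ to 3′ from 40 bases before to 20 bases after the start of transcription, with the run in capitals. Rps27l has 2 annotated promoters, and the other, which starts further downstream, holds no run and is not shown.
Rps2 (chr17:24720023-24720082, plus strand): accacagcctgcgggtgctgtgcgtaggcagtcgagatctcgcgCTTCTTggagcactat
Rpl14 (chr9:120571477-120571536, plus strand): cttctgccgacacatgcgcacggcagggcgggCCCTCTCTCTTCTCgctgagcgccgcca
Rpl13a (chr7:45128726-45128785, minus strand): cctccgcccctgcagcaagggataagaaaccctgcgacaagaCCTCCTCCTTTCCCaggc
Rps26 (chr10:128626487-128626546, minus strand): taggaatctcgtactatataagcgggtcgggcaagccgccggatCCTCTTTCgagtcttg
Rps27l (chr9:66946046-66946105, plus strand): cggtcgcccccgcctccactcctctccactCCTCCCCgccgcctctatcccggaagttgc
Rps27 (chr3:90213629-90213688, minus strand): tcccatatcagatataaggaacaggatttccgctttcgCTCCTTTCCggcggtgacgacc
Rpl7l1 (chr17:46782637-46782696, minus strand): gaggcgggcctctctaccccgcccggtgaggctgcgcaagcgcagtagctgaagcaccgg
Rplp0 (chr5:115559427-115559486, plus strand): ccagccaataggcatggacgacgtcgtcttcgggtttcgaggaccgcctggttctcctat

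Over the 250 bases before the start, 6 further motifs were searched on both strands. CCGGAA, the core that GABP and other ETS factors bind, was in 34.2% of ribosomal protein promoters and 12% of all promoters. CATTCC, the core bound by TEAD factors, the partners of Yap1 and Taz, was in 7.59% and 12.6%. TATAAA was in 5.06% and 12.4%, AAGATGGC (YY1) in 3.8% and 1.56%, CACGTG (the E box) in 8.86% and 6.02%, and CCAAT (NF-Y) in 27.8% and 33.8%. Small subunit promoters held CCGGAA in 48.1% of cases and large subunit promoters in 30.0%. These are matches of letters in fixed windows, and no test was made of them.

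Library totals ran from 336437 to 1564581 counts. The labels were checked against the deleted genes: Wwtr1 had 18.8, 17.6 and 21.0 CPM (counts scaled to a common library total) in cdKO overload libraries, against 171, 123 and 123 CPM in control overload libraries, a log2 fold change of -2.78 ± 0.28 (SE, adjusted p = 1.83e-06). Yap1 had 37.6, 21.4 and 31.5 CPM against 89.8, 46.7 and 39.1 CPM in the same groups and was not called (adjusted p = 0.586). The progenitor markers Pdgfra, Ly6a, Dcn, Gsn and Col3a1 together held 40588 to 66940 CPM in overload libraries and 70114 to 81164 CPM in sham libraries. Of these 5 genes, Col3a1 rose and Pdgfra, Dcn and Gsn fell with overload on average. Endothelial markers held 13.4 to 71.2 CPM in overload and 43.2 to 127 CPM in sham libraries, leukocyte markers 3.84 to 44.1 CPM and 12.7 to 46.9 CPM, and myofibre markers 10.9 to 69.5 CPM and 47.1 to 125 CPM. Of the leukocyte markers, Lyz2 and Cd52 were at 0 in 11 of 12 libraries each. The endothelial markers Pecam1, Cdh5, Kdr and Tek had 502 counts in all libraries together. Of these 4 genes, 3 were called lower with overload on average and 0 higher. Of 2 tested myofibre markers 1 was called lower, as was 1 of 2 tested markers of pericytes and smooth muscle. The 1 leukocyte marker tested was not called. The part of other cell types in the results below was not tested. In each group the deepest library also had the highest share of ribosomal protein counts, and control overload libraries 2 and 3 held 63.9 and 67.9 CPM of Y-linked genes, against 111 to 253 CPM in the other 10 libraries. Results that rest on these libraries are given with and without them.

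Together the 94 genes took a larger share of the counts in most overloaded libraries. They held 2.18%, 2.14% and 2.63% of all counts in cdKO overload libraries and 1.95%, 2.84% and 2.78% in control overload libraries. They held 1.42%, 1.99% and 1.35% in cdKO sham libraries and 1.52%, 2.28% and 1.81% in control sham libraries. In cdKO mice the overload and sham ranges did not overlap, whereas in control mice overload library 1 fell among the sham libraries and sham library 2 lay above it. Mitochondrial genes took 8.6% to 10.1% of counts in cdKO overload and 11.6% to 14.0% in cdKO sham libraries, and protein-coding genes 86.4% to 87.1% and 82.5% to 84.2%. These shares separate the same libraries. Of protein-coding counts alone, the 94 genes held 2.46% to 3.03% in cdKO overload and 1.62% to 2.42% in cdKO sham libraries, without overlap. In a fit of protein-coding nuclear genes only, 13 of 80 were called in cdKO mice, where 13.8% of all genes were. The medians in that fit were 0.54 for large and 0.57 for small subunit genes. The part of these shares in the result was not tested further. In these bulk samples, more cells of a type and more RNA per cell cannot be told apart.

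The large and the small subunit moved alike. Large subunit genes held 1.48 ± 0.20% of counts in cdKO and 1.58 ± 0.29% in control overload libraries, against 1.04 ± 0.17% in cdKO and 1.20 ± 0.28% in control sham libraries (mean ± SD, n = 3 libraries each). Small subunit genes held 0.838 ± 0.069%, 0.940 ± 0.207%, 0.553 ± 0.180% and 0.667 ± 0.125% in the same order. The ratio of large to small subunit counts was 1.76 ± 0.11 in cdKO and 1.70 ± 0.09 in control overload libraries, against 1.93 ± 0.28 in cdKO and 1.81 ± 0.27 in control sham libraries, and all 4 ranges overlapped. Rpl4 alone supplied between 21.3% and 38.6% of the large subunit counts. Without it the ratio lay between 1.20 and 1.37 in all 12 libraries.

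**Figure D1:**
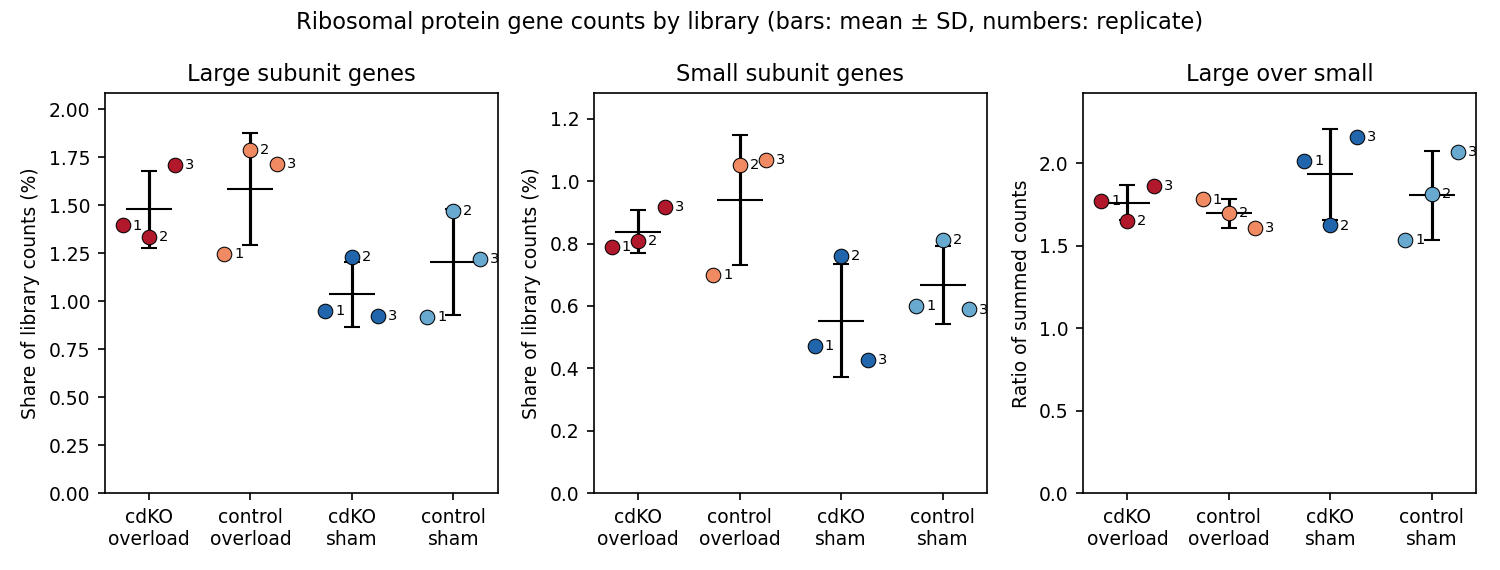
Share of each library's counts taken by large subunit genes (left) and small subunit genes (middle), in percent, and the ratio of the summed counts (right), with 1 point per library, numbered by replicate, and the mean ± SD of 3 libraries as bars. Overload libraries of cdKO mice lie above their sham libraries in both shares, overload library 1 of control mice lies among the sham libraries, and the ratio overlaps between all 4 groups.

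The count of an mRNA here is a count of its 3′ end, so it was not divided by length, and levels are compared between genes only as counts of ends. Of the 94 genes, 80 passed the filter on low counts and were tested: 47 with large subunit names, 32 with small subunit names and Rps19bp1. The 75 core genes among them had mean levels from 17.7 CPM (Rpl24) to 3730 CPM (Rpl4), with a median of 171 CPM. The highest were Rpl4 and Rpl5 (1440 CPM), a 5S rRNA-binding protein, both of the large subunit, and the highest of the small subunit was Rps9 at 562 CPM. The 14 untested genes included the core genes Rpl23a and Rps10, at 1.90 and 2.68 CPM on average, and the tissue-restricted paralogs Rpl3l, known from muscle fibres (0.325 CPM), and Rpl10l, known from testis (0 counts). Rpl22l1 had 2.23 to 12.7 CPM, Rpl39l 0 to 3.57 CPM, Rpl36al 0 to 2.89 CPM, Rps27rt 0 to 7.56 CPM and Rps23rg1 0 to 11.9 CPM over the 12 libraries. Rpl36a-ps1 had 1.79 to 18.4 CPM, Rpl36-ps4, Rpl9-ps1 and Rpl9-ps6 had at most 6 counts each in all libraries together, and Rps18-ps6 had 0. A count of 0 in a library allows up to between 1.92 and 8.92 CPM, for counting error only.

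Low counts of a core gene went with shared sequence in some cases. Ribosomal protein genes have many processed pseudogenes, and a read that matches several places can be lost or given to the wrong one. Over the last 300 bases of the transcript picked for each core gene, the median share of 50-base stretches found in no other annotated gene was 45.8%. The pick was a protein-coding transcript annotated as principal where available, and the longest among equals. Other ends of the same gene were not compared. The share was 100% for 23 of 77 core genes, below 50% for 41, and 0% for Rpl9, Rpl10, Rpl36a and Rps27. These last had mean levels of 83.4, 246, 141 and 100 CPM, so a shared end did not always go with low counts. Rpl23a and Rps10, the 2 core genes with almost no counts, had named pseudogenes that held more counts than they did. Rps10-ps1 had 534 counts in all libraries against 23 for Rps10. Across the 77 core genes, uniqueness and log mean CPM had a Spearman rho of 0.28, given as a description, since the genes share libraries. In addition, exons of 41 of the 94 genes overlap exons of another annotated gene, many of them small nucleolar RNAs within host genes. The overlap lay on the same strand for 28 of the 94 genes, where no strand setting could tell the reads apart. It lay on the opposite strand for 21, where reads cannot be told apart without a stated setting.

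**Figure D2:**
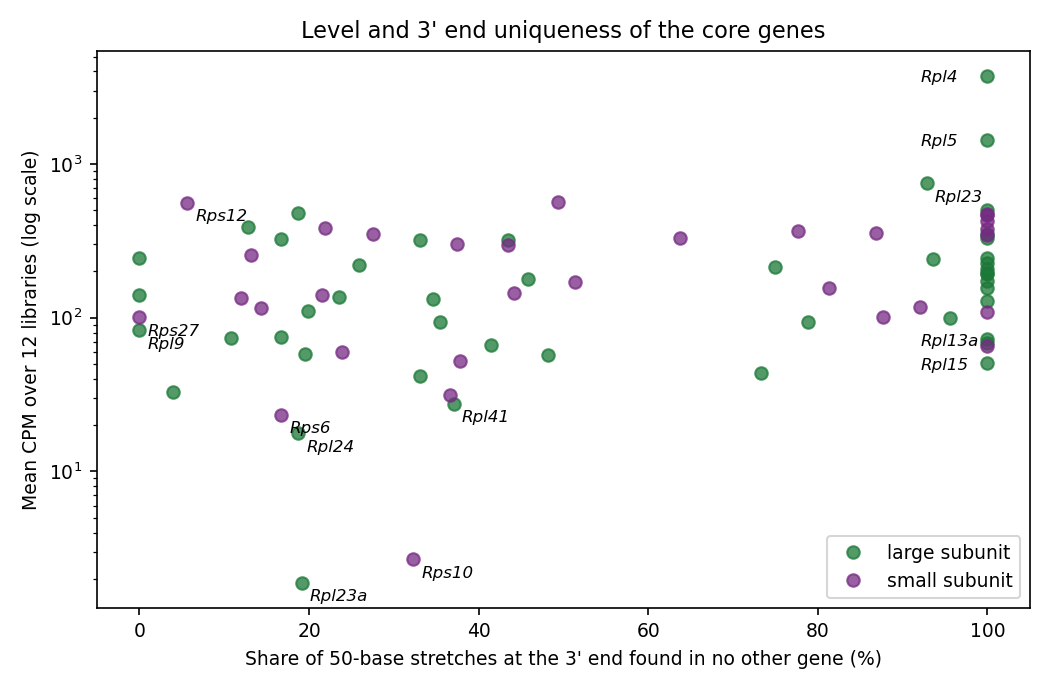
Mean level of each core gene over 12 libraries, in CPM on a log scale, against the percentage of 50-base stretches at its 3′ end that occur in no other annotated gene. Rpl4 and Rpl5 sit at 100% and above 1000 CPM, whereas Rpl23a and Rps10, below 3 CPM, sit at 19.1% and 32.3%.

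Overload in cdKO progenitors raised 12 ribosomal protein genes and lowered 0 of the 80 tested, at an adjusted p under 0.05 over 8161 genes. Of all genes tested, 13.0% were called in either direction, 6.37% as higher and 6.68% as lower, so 12 of 80 (15%) is above the share of genes called higher and near the share called in all. The median log2 fold change was 0.53 for large and 0.57 for small subunit genes, against -0.02 for all genes, and 77 of 80 were positive. The 12 comprised 6 large subunit genes (Rpl13a, Rpl14, Rpl27, Rpl29, Rpl38 and Rplp1) and 6 with small subunit names (Rps7, Rps18, Rps25, Rps26, Rps27l and Rps18-ps5). In 33 of 80 every cdKO overload library lay above every cdKO sham library, where 15.4% of all genes did so, and in 0 of 80 below, where 14.7% did. The unadjusted p was under 0.05 for 33 genes.

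The largest change among the 12 was that of Rps27l, a paralog of the small subunit protein Rps27 and a known target of p53. Its gene lies at chr9:66946086-66949516 on the plus strand (GRCm38, GENCODE vM21), and its exons overlap no other gene. It had 70.9, 61.6 and 77.7 CPM in cdKO overload libraries, against 24.9, 34.3 and 17.9 CPM in cdKO sham libraries, a log2 fold change of 1.37 ± 0.30 (SE, adjusted p = 0.00356). The lowest overload library was well above the highest sham library. Rpl13a, a large subunit protein also known from the interferon-activated GAIT complex, had 81.0, 74.2 and 93.4 CPM against 39.8, 38.2 and 30.4 CPM, a change of 1.16 ± 0.29 (adjusted p = 0.0108). Its groups did not overlap. Rpl38, whose loss in mice alters translation of Hox mRNAs, had 137, 177 and 171 CPM against 64.7, 109 and 78.6 CPM (0.90 ± 0.24, adjusted p = 0.0158). Rps7 had 162, 112 and 154 CPM against 89.6, 71.6 and 53.6 CPM (0.96 ± 0.26, adjusted p = 0.0165). Here too no library of one load reached the other.

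Rps18 and its copy Rps18-ps5 changed by 1.0 ± 0.30 and 1.20 ± 0.38 (adjusted p = 0.0279 and 0.0364). The last 300 bases of Rps18-ps5 hold no unique stretch and are shared with Rps18, so reads may pass between these genes. Rps25, a protein needed by some viral internal ribosome entry sites, changed by 0.93 ± 0.28 (adjusted p = 0.0282). The other core genes called were Rps26 (0.90 ± 0.26), Rpl27 (0.97 ± 0.29), Rpl14 (0.83 ± 0.26), Rpl29 (0.96 ± 0.30) and Rplp1 (0.94 ± 0.31), with adjusted p between 0.0219 and 0.0458. Rplp1 is a protein of the stalk that recruits elongation factors. Its partners Rplp0 and Rplp2 changed by 0.87 ± 0.31 and 0.69 ± 0.27 and did not pass (adjusted p = 0.0695 and 0.0903).

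The number called in cdKO mice depended on single libraries. It was 1 without cdKO sham replicate 3 (8.65% of all genes called), 2 without cdKO overload replicate 3 (4.93%) and 4 without cdKO sham replicate 1 (8.74%). It was 5 without cdKO overload replicate 1 (5.16%) and 20 without cdKO sham replicate 2 (6.5%). Rps27l was called in each of the 12 fits that left out 1 library. With log2 library total as a covariate 14 of 80 genes (17.5%) were called, all 12 among them, where 14.3% of all genes were called. The medians were 0.47 for large and 0.49 for small subunit genes.

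Overload in control progenitors raised 10 ribosomal protein genes and lowered 0 of 80. Of all genes tested, 21.7% were called in this comparison, 10.6% as higher and 11% as lower, so 10 of 80 (12.5%) is close to the share of genes called higher. The median log2 fold change was 0.38 for both large and small subunit genes, against -0.05 for all genes, and 73 of 80 were positive. The 10 were 6 large subunit genes (Rpl7a, Rpl7l1, Rpl12, Rpl13a, Rpl14 and Rpl29) and 4 of the small subunit (Rps2, Rps26, Rps27l and Rpsa). In 14 of 80 the control overload libraries all lay above the control sham libraries, where 18.0% of all genes did so, and in 0 of 80 below, where 18.9% did. The unadjusted p was under 0.05 for 20 genes.

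Rps2, a protein near the entry channel for mRNA on the small subunit, had the smallest p. Its gene lies at chr17:24718116-24721929 on the plus strand. It had 605, 631 and 662 CPM in control overload libraries, against 351, 219 and 134 CPM in control sham libraries, a log2 fold change of 1.37 ± 0.31 (adjusted p = 0.00248). The overload libraries were close to each other and all above the sham libraries. Only 21.9% of the 3′ end of Rps2 is unique, and its opposite strand holds Snhg9. Rpsa, the small subunit protein also known as the laminin receptor, had 69.5, 105 and 137 CPM against 40.2, 50.4 and 26.8 CPM (1.29 ± 0.34, adjusted p = 0.00699). Rpl14 had 241, 298 and 310 CPM against 107, 179 and 116 CPM (0.99 ± 0.26, adjusted p = 0.0081). In the transcripts picked, the 3′ ends of Rpsa and Rpl14 are fully unique, and in both genes the groups did not overlap.

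Rpl7l1, a relative of Rpl7 whose yeast counterpart acts in assembly of the large subunit rather than in the finished ribosome, had 27.1, 42.2 and 42.6 CPM in control overload libraries, against 15.6, 13.9 and 11.9 CPM in control sham libraries (1.37 ± 0.38, adjusted p = 0.0102). Rpl13a had 71.2, 144 and 129 CPM against 51.4, 44.1 and 71.3 CPM (1.05 ± 0.29, adjusted p = 0.0107), and its lowest overload library was just below its highest sham library. Rpl29 changed by 1.04 ± 0.29 and Rps26, a protein that contacts mRNA upstream of the start codon, by 0.81 ± 0.26 (adjusted p = 0.0122 and 0.0255). Rps27l changed by 0.89 ± 0.29, Rpl7a by 1.0 ± 0.32 and Rpl12 by 0.70 ± 0.25 (adjusted p = 0.0276, 0.0278 and 0.0495).

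The number called in control mice also depended on single libraries. It was 24 without control overload replicate 1 (27.6% of all genes called), 4 without control overload replicate 2 (12.5%) and 7 without control overload replicate 3 (14.4%). It was 3 without control sham replicate 1 (13.9%), 12 without control sham replicate 2 (14.7%) and 5 without control sham replicate 3 (14.9%). With only control overload replicate 1 left in its group, that library is assumed to vary like those of the other groups. In this fit 0 of 79 were called, with 5 at an unadjusted p under 0.05, where 2.17% of all genes were called, so the count says little of the ribosomal protein genes. The medians were -0.09 for large and -0.15 for small subunit genes. With log2 library total as a covariate 1 gene (Rps2) was called, where 12.7% of all genes were, and the medians were 0.02 and -0.10. With the Y-linked share as a covariate 1 gene (Rpl29) was called, where 11.3% of all genes were, and the medians were 0.12 and 0.04. Depth, the Y-linked share and load move together in the control libraries, and their parts in these values cannot be told apart.

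**Figure D3:**
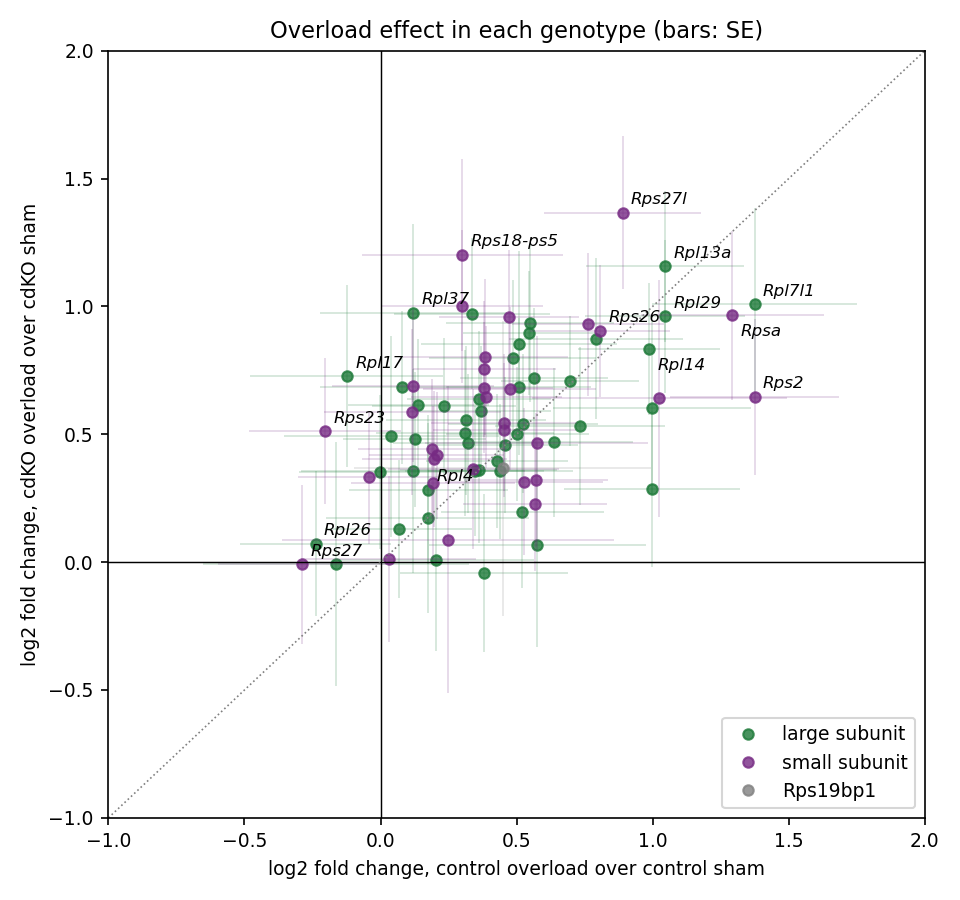
Log2 fold change of each tested gene with overload in cdKO mice (vertical) against that in control mice (horizontal), with SE as bars and the line of equal change dotted. Most points lie above 0 on both axes, Rps27l is highest in cdKO mice at 1.37, and Rps27 and Rpl26 lie below 0 in control mice.

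Both genotypes shared 5 of these calls: Rpl13a, Rpl14, Rpl29, Rps26 and Rps27l. They are 41.7% of the 12 called in cdKO mice and 50% of the 10 called in control mice. The difference between the genotypes' responses was tested as an interaction, and 0 of 80 genes passed, with 0 at an unadjusted p under 0.05 and 0.0% of all genes called. DESeq2 and limma voom also called 0 of them. With log2 library total as a covariate 0 passed and 15 of 80 had an unadjusted p under 0.05 (median 0.46, 72 positive). Without control overload libraries 2 and 3, which leaves 1 library in that group, 0 passed and 11 of 79 did (median 0.69, 76 positive). The smallest p was that of Rps23, with an interaction of 0.72 ± 0.40 (adjusted p = 0.94). It changed with overload by 0.51 ± 0.28 in cdKO mice and by -0.20 ± 0.28 in control mice, and neither value passed. Rpl37 (0.85 ± 0.49), Rps18-ps5 (0.90 ± 0.53) and Rps2 (-0.73 ± 0.43) followed. The median SE of an interaction was 0.41, so small differences between the genotypes' responses were not detectable at this depth.

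Averaged over both genotypes, overload raised 35 of 80 ribosomal protein genes and lowered 0. Of all genes, 33.7% were called in this comparison, 16.8% as higher and 17.0% as lower, so the 43.8% of ribosomal protein genes called lies above both. The calls were spread over the subunits: 21 of 47 large and 14 of 32 small subunit genes. The median log2 fold change was 0.43 and 0.49, against -0.04 for all genes, and 77 of 80 were positive. With log2 library total as a covariate the medians were 0.25 and 0.25 (66 of 80 positive), and without control overload libraries 2 and 3 they were 0.29 and 0.25 (65 of 79 positive). Each of the 17 genes called in either genotype was among the 35, and 18 were called on average only. In 5 genes (Rpl14, Rpl38, Rpl7l1, Rps27l and Rpsa) all 6 overload libraries lay above all 6 sham libraries, where 6.78% of all genes did so, and in 0 of 80 all lay below, where 6.75% did.

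Of the 35, the largest change was that of Rpl7l1 at 1.19 ± 0.27 (adjusted p = 0.00119) and the smallest p that of Rps27l (1.13 ± 0.21, adjusted p = 1.67e-04). Rpsa (1.13 ± 0.24), Rpl13a (1.1 ± 0.21), Rps2 (1.01 ± 0.22) and Rpl29 (1.0 ± 0.21) changed by about as much. All 3 stalk proteins passed here: Rplp0 by 0.83 ± 0.22, Rplp1 by 0.74 ± 0.22 and Rplp2 by 0.60 ± 0.19 (adjusted p = 0.00619, 0.0107 and 0.0167). Rpl5 and Rpl11, which with 5S rRNA form the particle that binds the p53 regulator Mdm2, changed by 0.50 ± 0.19 and 0.64 ± 0.19 (adjusted p = 0.0384 and 0.0115). Rps27a, made as a fusion with ubiquitin, changed by 0.52 ± 0.20 (adjusted p = 0.0435).

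Other well-known members did not pass. Rps6, the substrate of the S6 kinases, had 33.3, 17.6 and 27.3 CPM in cdKO overload and 16.9, 42.2 and 43.7 CPM in control overload libraries, against 29.9, 13.7 and 5.36 CPM in cdKO sham and 13.4, 16.4 and 20.8 CPM in control sham libraries. Its averaged change was 0.83 ± 0.33 (adjusted p = 0.0532), with overlapping libraries. Rps19, mutated in Diamond-Blackfan anaemia, changed by 0.58 ± 0.23 (adjusted p = 0.0516), Rps3, which also acts in DNA repair, by 0.40 ± 0.19 (adjusted p = 0.104) and Rpl3, next to the peptidyl transferase centre, by 0.46 ± 0.19 (adjusted p = 0.0634). Rps19bp1, no subunit, changed by 0.41 ± 0.40 (adjusted p = 0.458).

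The most abundant gene, Rpl4, was among those with the smallest changes. It had 3607, 3523 and 5076 CPM in cdKO overload and 3610, 4693 and 4067 CPM in control overload libraries, against 3027, 3220 and 3561 CPM in cdKO sham and 1959, 4069 and 4346 CPM in control sham libraries. The control groups overlapped, and so did the sham and overload libraries of cdKO mice. Its averaged change was 0.23 ± 0.21 (adjusted p = 0.419). Rpl10, whose loading is a late step of large subunit maturation, changed by 0.10 ± 0.19, and Rps4x, on the X chromosome, by 0.02 ± 0.23. The 3 negative values were those of Rps27 (-0.15 ± 0.22), Rpl10-ps3 (-0.09 ± 0.34) and Rpl26 (-0.08 ± 0.20), and none passed.

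**Figure D4:**
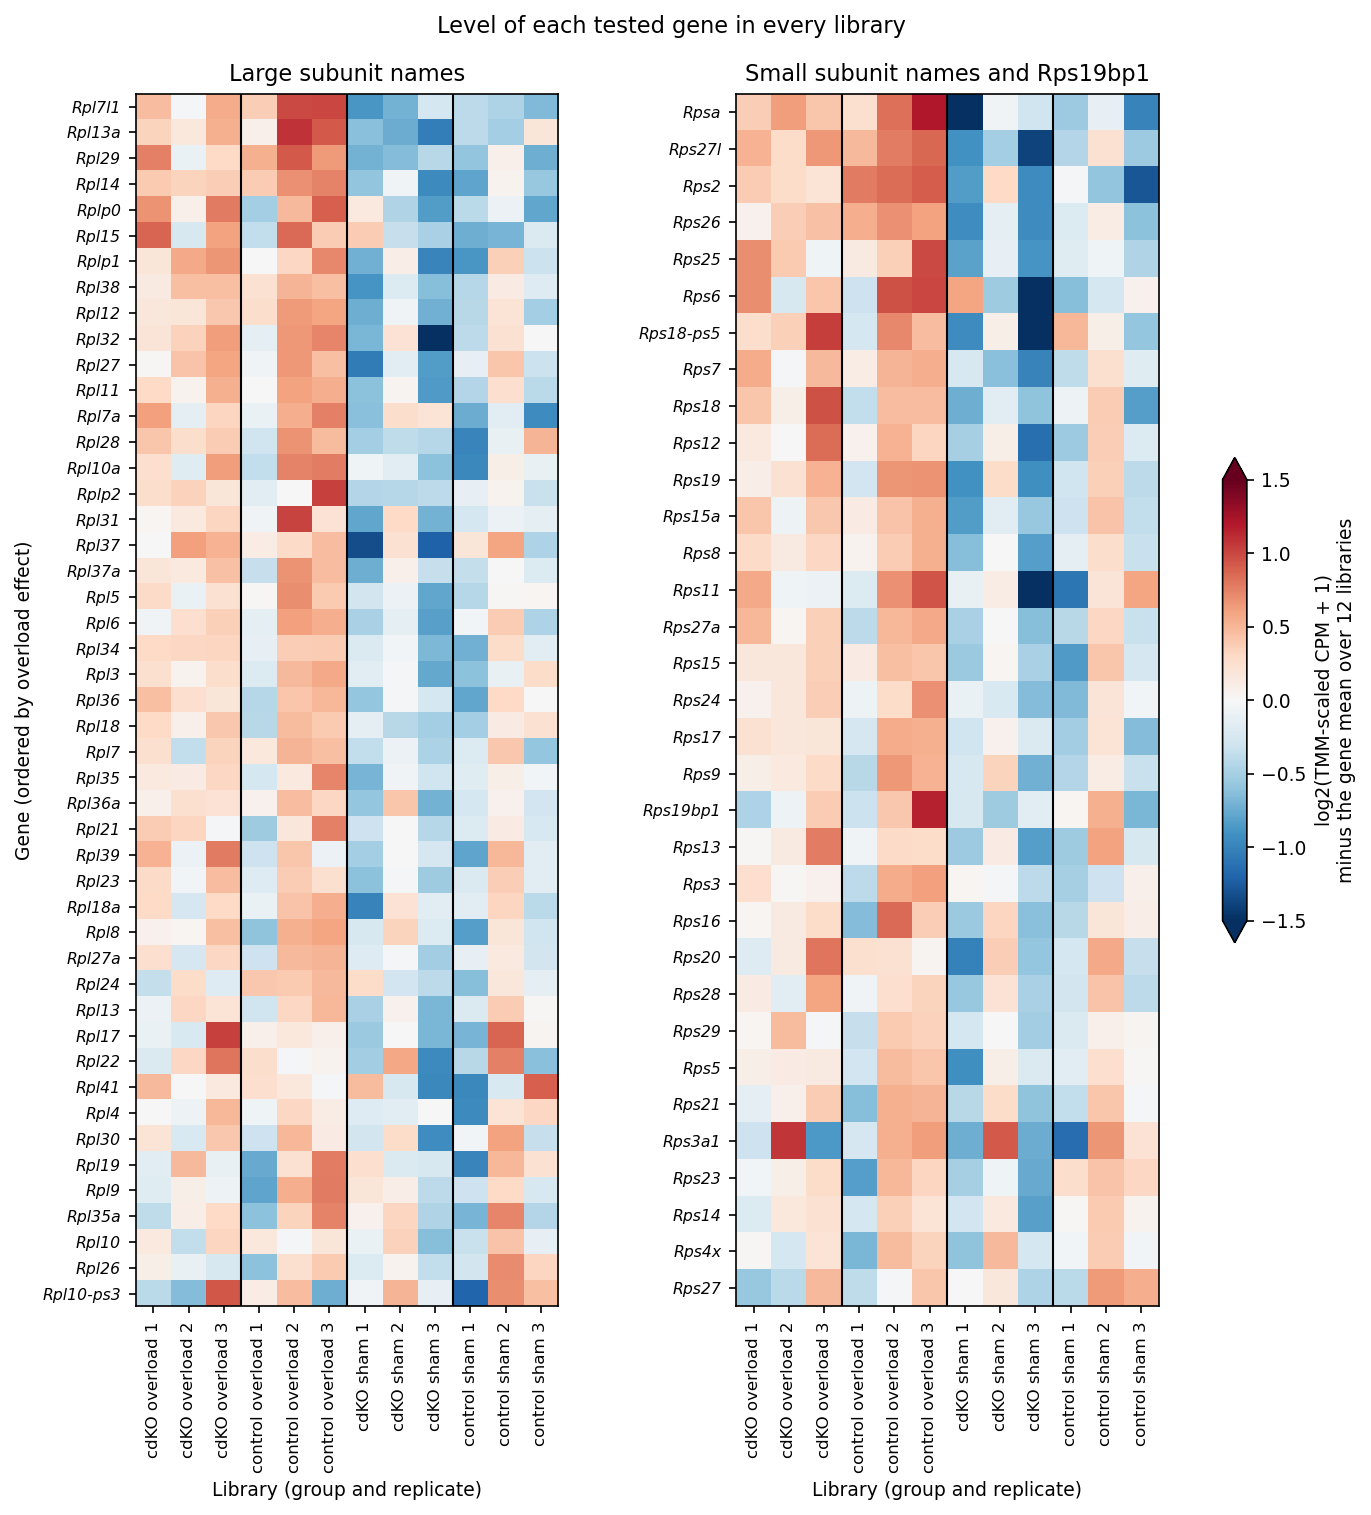
Each tested gene (rows, ordered by the averaged overload effect) in every library (columns), as log2(TMM-scaled CPM + 1) minus the gene's mean over 12 libraries, with colours capped at -1.5 and 1.5. Control overload libraries 2 and 3 are high for most genes, control overload library 1 is not, and sham library 2 is the highest of its group in both genotypes.

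The rows of that map move together within a library. The median ribosomal protein gene lay 0.18, 0.12 and 0.37 above its own mean (log2 scale) in cdKO overload libraries, and at -0.16, 0.49 and 0.51 in control overload libraries. It lay at -0.51, -0.01 and -0.64 in cdKO sham and -0.40, 0.24 and -0.23 in control sham libraries. The median of all other genes stayed between -0.03 and 0.07. Control sham library 2 was therefore above control overload library 1 for the ribosomal protein genes as a whole.

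Some of the averaged calls were also made in fits that allow for depth or leave libraries out. With log2 library total as a covariate, 11 of the 35 averaged calls remained (25.2% of all genes called). Without control overload libraries 2 and 3, 9 did (13.8% of all genes called), in a fit where that group holds 1 library whose spread is taken from the other groups. With library total as a covariate, the 11 were 13.8% of the ribosomal protein genes tested. The shares of all genes in these fits count calls in either direction, whereas the ribosomal protein calls were all higher. The share of all genes called higher was not taken there, so no like comparison can be made. The 9 were in both sets: Rpl13a, Rpl14, Rpl29, Rpl38, Rps2, Rps25, Rps26, Rps27l and Rpsa. These 9 were also called with the Y-linked share as a covariate, without the deepest library of each group, with DESeq2 and with limma voom. In that order 20, 31, 35 and 54 ribosomal protein genes were called, or 25%, 39.2%, 43.8% and 67.5% of those tested. The shares of all genes called in either direction were 31.5%, 19.9%, 29.7% and 38.6%. In the 12 fits that left out 1 library, 16 genes were called every time, the 9 among them.

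The count was also taken by how unique the 3′ end is. In 23 core genes the 3′ end of the transcript picked was fully unique. Of these, 14 rose on average and 0 fell, with a median of 0.55 and all 23 positive. Of the 52 tested core genes with a shared 3′ end, 18 rose and 0 fell, with a median of 0.42 and 50 positive. The difference between these sets was not tested. Among all genes, 16.8% were called higher and 17.0% lower on average. The 23 include genes with many named pseudogenes (Rpl31 with 24) and others with 0 (Rpl11), and reads from other 3′ ends were not examined. When the counts of pseudogenes named after a gene were added to it, 38 of 82 were called on average, 14 in cdKO mice and 11 in control mice. Of all genes, 33.8%, 13.1% and 21.8% were called in these fits. Of the 35 genes called on average, 29 had an annotated promoter and 65.5% of these held a pyrimidine run, against 40% of 30 genes not called. This is a description of letters in a window and was not tested.

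The paralog Rps27l and the gene it resembles, Rps27, did not move together. Rps27 had 63.7, 74.2 and 133 CPM in cdKO overload and 76.2, 99.1 and 133 CPM in control overload libraries, against 91.3, 108 and 67.9 CPM in cdKO sham and 75.9, 146 and 137 CPM in control sham libraries. Its ranges overlapped. There were 1.11, 0.83 and 0.583 counts of Rps27l per count of Rps27 in cdKO overload and 0.956, 0.897 and 0.707 in control overload libraries. The ratio was 0.273, 0.318 and 0.263 in cdKO sham and 0.50, 0.388 and 0.239 in control sham libraries. All 6 overload libraries had a higher ratio than all 6 sham libraries. The mean difference was 1.35 on the log2 scale, with p = 0.005 in a two-sided exact permutation test of load within genotype, the smallest that 400 regroupings allow (adjusted p = 0.02 over 4 pairs). The pairs were tested after their values had been seen.

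The 3′ end of Rps27 is shared in full with Rps27rt and other copies, so its level is uncertain, and that of Rps27l is 78.1% unique. In fits that left out 1 library, the difference in ratio stayed between 1.27 and 1.48, with adjusted exact permutation p between 0.01 and 0.04. Rpl7l1 over Rpl7 was 0.111 to 0.142 in overload and 0.0509 to 0.108 in sham libraries, a log2 difference of 0.67 (exact permutation p = 0.01, adjusted p = 0.02). Leaving out 1 library gave 0.57 to 0.78, with an adjusted p that reached 0.05 at its highest. Rpl22l1 over Rpl22 differed by 0.09 (exact permutation p = 0.87), a value that changed sign when single libraries were left out. Rpl39l over Rpl39 differed by -0.62 (exact permutation p = 0.16, adjusted p = 0.213), on 20 counts of Rpl39l in all.

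**Figure D5:**
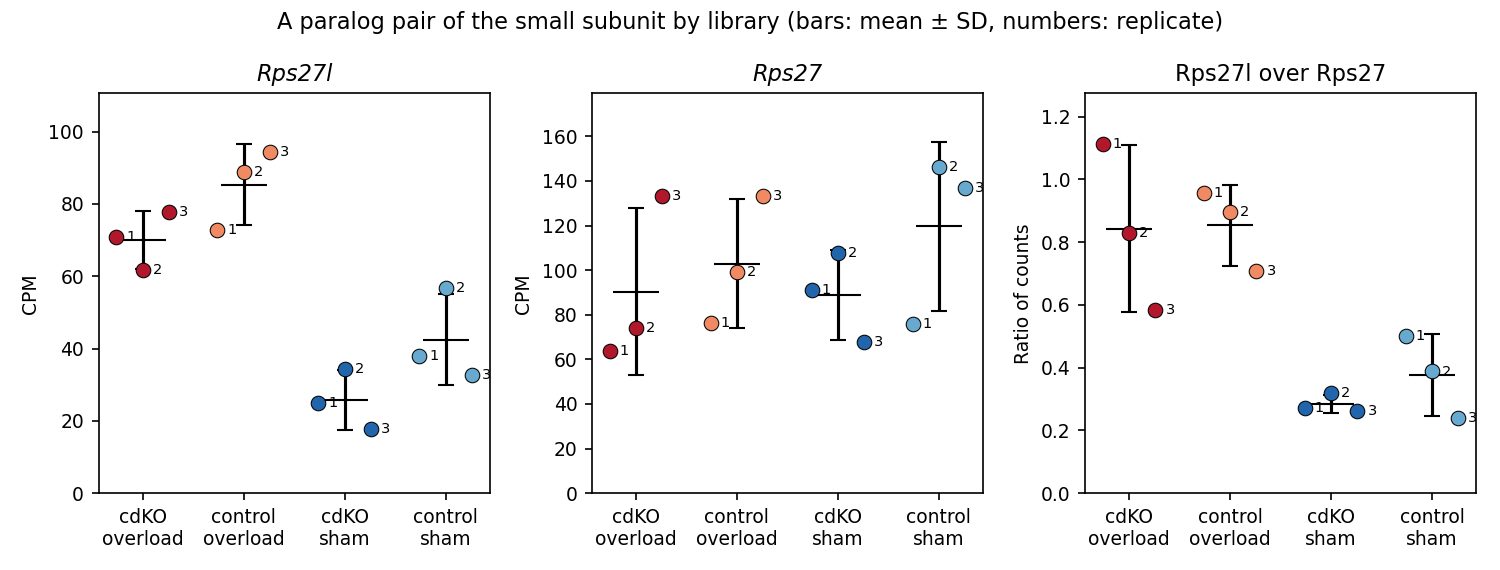
CPM of Rps27l (left) and Rps27 (middle), and counts of Rps27l per count of Rps27 (right), with 1 point per library, numbered by replicate, and the mean ± SD of 3 libraries as bars. The ratio is 0.583 or more in every overload library and 0.50 or less in every sham library, whereas Rps27 overlaps between loads.

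Loss of Yap1 and Taz changed no ribosomal protein gene past the threshold. Under overload 0 of 80 were called between cdKO and control mice by edgeR, where 0.0368% of all genes were (0.0123% higher and 0.0245% lower), and 0 had an unadjusted p under 0.05. In sham muscle 0 of 80 were called (0.0123% of all genes), with 4 at an unadjusted p under 0.05. Averaged over loads 0 of 80 were called (0.0123% of all genes), with 2 at an unadjusted p under 0.05. DESeq2 and limma voom called 0 in each of the 3 comparisons.

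The fitted values nonetheless leaned one way, with the cdKO libraries lower. The averaged median was -0.17 for large and -0.19 for small subunit genes, against 0.03 for all genes, and 73 of 80 were negative, including all 32 with small subunit names. Under overload the medians were -0.09 and -0.12 with 58 of 80 negative, and in sham muscle -0.19 and -0.33 with 70 of 80 negative. Genes of 1 library move together, so these counts are not 80 separate observations. Without control overload libraries 2 and 3 the averaged medians were 0.06 for both subunits and those under overload 0.44 and 0.40, both of the other sign. The control overload group then holds 1 library, the lowest of its group in ribosomal protein share, and its spread is taken from the other groups. In sham muscle the medians were 0.02 and -0.04 without control sham replicate 2 alone, with 41 of 80 positive. Without cdKO sham replicate 2 alone they were -0.36 and -0.57, with 7 positive and 22 at an unadjusted edgeR p under 0.05. With log2 library total as a covariate they were -0.38 and -0.57, with 3 positive and 28 at such a p. In both fits 0 of 80 were called, where at most 0.0123% of all genes were. Under overload that covariate gave medians of 0.01 and 0.02. For single genes the smallest p averaged over loads was that of Rpl13a at -0.49 ± 0.21 (adjusted p = 0.923), followed by Rps27l at -0.47 ± 0.21 (adjusted p = 0.923).

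Under overload the smallest p was that of Rps2, with 436, 418 and 384 CPM in cdKO overload libraries against 605, 631 and 662 CPM in control overload libraries (-0.56 ± 0.30, adjusted p = 0.778). Its groups did not overlap, and the same held for Rps26 and Rpl24, lower in cdKO mice. That is 3 of 80, where 5.31% of all genes were lower without overlap, and 0 of 80 were higher, where 5.38% were. Rpl13a (-0.43 ± 0.26), Rpl7l1 (-0.50 ± 0.32) and Rpl29 (-0.37 ± 0.27) followed. In sham muscle Rps23 had 64.7, 91.2 and 55.4 CPM in cdKO sham libraries against 121, 126 and 116 CPM in control sham libraries (-0.73 ± 0.29, adjusted p = 0.999). Rps23, Rpl13a and Rplp2 were lower in all cdKO sham libraries than in any control sham library, 3 of 80 against 4.45% of all genes, and 0 of 80 were higher in all, against 5.44%. Over both loads, 0 of 80 were higher or lower in all 6 cdKO libraries, against 0.0858% and 0.0368% of all genes. Rps27l (-0.71 ± 0.32), Rpl27 (-0.67 ± 0.31) and Rpl37 (-0.74 ± 0.35) also had an unadjusted p under 0.05.

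Partners of the ribosomal proteins were read from fixed lists of genes. Rack1, a scaffold on the small subunit whose name falls outside the pattern, rose on average (0.75 ± 0.19, adjusted p = 0.00273) and in cdKO mice (0.80 ± 0.26, adjusted p = 0.0448). Fau, which encodes a further small subunit protein, did not pass in any comparison. TOP mRNAs for other proteins moved in the same direction in part: 4 of 23 rose and 1 fell in cdKO mice, 6 rose and 0 fell in control mice, and on average 10 rose and 2 fell. Eef1g and Eef1b2 encode subunits of elongation factor 1, which brings aminoacyl-tRNA to the ribosome. Eef1g changed by 1.48 ± 0.22, Eef1b2 by 1.21 ± 0.20 and Npm1, a nucleolar chaperone, by 1.06 ± 0.19 on average. Eif4a2, a helicase of initiation, fell by 0.92 (SE 0.24, adjusted p = 0.00368), and the RNA host Snhg8 by 0.64 (SE 0.24, adjusted p = 0.0414). The median over the list was 0.34, against -0.04 for all genes.

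Chaperones and importers that carry ribosomal proteins to the nucleolus rose in 1 of 15 cases in cdKO mice, in 6 of 15 in control mice and in 11 of 15 on average, with 0 lower, and their averaged median was 0.75. Of all genes, 6.37%, 10.6% and 16.8% were called higher in these comparisons, so 1 of 15 in cdKO mice is near the share of all genes. Among them were the importins Ipo7 (0.95 ± 0.19) and Kpnb1 (0.75 ± 0.17) and the histone chaperone Nap1l1 (1.02 ± 0.18). In cdKO mice it was Bccip, whose yeast counterpart is a chaperone of Rpl23 (2.12 ± 0.63, adjusted p = 0.0264). Bccip had 22, 9 and 17 counts in cdKO overload libraries against 3, 7 and 0 in cdKO sham libraries, the latter near the floor. Of 17 regulators of ribosomal protein mRNA, 1 rose and 0 fell in cdKO mice, 3 rose and 2 fell in control mice, and 5 rose and 2 fell on average, and the 1 of 17 in cdKO mice is likewise near the share of all genes. Eif4ebp1, a translation inhibitor that mTORC1 switches off, changed by 1.5 ± 0.29 and Larp1 by 0.84 ± 0.22 on average. The mTOR inhibitor Deptor changed by -1.66 ± 0.32 and Myc, a transcription factor of ribosome genes, by -1.04 ± 0.20.

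Around the 5S particle, 3 of 8 genes rose and 1 fell on average: Rpl5 and Rpl11 as above, Bop1, which acts in large subunit assembly (1.67 ± 0.27), and Cdkn1a, the cell cycle inhibitor and p53 target (-1.56 ± 0.20, adjusted p = 1.38e-06). Among all genes, 16.8% were called higher and 17.0% lower in that comparison. Cdkn1a changed opposite to Rps27l, and whether p53 had a part in either change was not tested. Of the 61 tested genes of the TOP, regulator, chaperone and 5S lists, 0 passed by edgeR between cdKO and control mice or in the interaction. Between 2 and 3 had an unadjusted p under 0.05 in each of these comparisons.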

How the data were processed

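RNA was sequenced in 12 libraries. Per the labels' protocols they followed the method of Hashimshony et al., known as CEL-Seq2, which reads mRNA 3′ ends. The authors deposited whole-number counts per gene for all libraries in 1 table. The submitters' processing notes name featureCounts 2.0.1, DESeq2 1.26.0, HISAT2 2.2.1, Trim Galore 0.6.6 and GRCm38, with no role or order. The use of strand, molecular identifiers and multi-mapped reads is not given in the sources used here. Intervals and floors cover counting error only, and the limit for a count of 0 was 3 counts of the library's total.

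Counts were tested with edgeR 4.0.16 (R 4.3.3): filterByExpr, TMM scaling, a robust quasi-likelihood fit of all 4 groups and Benjamini-Hochberg adjustment over 8161 genes, with a threshold of 0.05. Standard errors are the log2 fold change over the square root of F. Contrasts were overload against sham and cdKO against control, each within the other factor and averaged over it, and their interaction, 7 in all. CPM used total counts. Groups were called not overlapping on TMM-scaled CPM. DESeq2 1.42.0 and limma 3.58.1 (voom) were alternatives, and the test was checked on simulated data. Ratios of paralogs were taken on counts with a pseudocount of 0.5.

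The members and the gene lists were chosen with earlier results of these data known. Genes were named by rule: in each comparison the members that passed, up to 12 each way by smallest p, or the 4 of smallest p where fewer than 4 passed, plus a list of well-known members, paralogs and the highest and lowest by level. Genes named beyond the rule, and the tests of paralog ratios, were chosen after values were seen. The covariate of library total, and the fits without the deepest libraries or without control overload libraries 2 and 3, were also added after seeing the data. The labels do not say what the replicate numbers share, so no pairing was used. Deviations from the group mean were correlated between -0.228 and 0.268 in same-numbered libraries. In libraries of different number they were correlated between -0.314 and 0.333. With 3 libraries per group these values cannot settle whether the samples are paired. Promoters came from RefSeq (GRCm38.p6) and 3′ ends from GENCODE vM21, which matched all 54100 gene identifiers.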

Additional observations from a re-analysis of the deposited data

Results flagged for a closer look

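Apart from the copies annotated as protein-coding, pseudogenes named after ribosomal protein genes were not among the genes compared. Of those with the pseudogene suffix, 6 had more counts than the gene they are named after, as did Rps3a3 against Rps3a1. The 4 with the most counts were as follows, and the others were Rpl23a-ps14, Rps10-ps2 and Rpl23a-ps4. Rps13-ps1 had 1931 counts over all libraries, against 1328 for Rps13. Rpl15-ps1 had 1130 counts, against 511 for Rpl15. Rps10-ps1 had 534 counts, against 23 for Rps10. Rps3a3, not annotated as protein-coding here, had 4444 counts, against 606 for Rps3a1. Of the 309 pseudogenes named Rpl or Rps, 269 had counts and 19 passed the filter. Of these, 5 rose and 0 fell with overload averaged over genotypes, with a median log2 fold change of 0.50. Of all genes, 16.8% were called higher and 17.0% lower in that comparison. Whether their counts came from their own transcripts or from those of the genes they resemble was not tested.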

How the results depend on the processing

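The number of ribosomal protein genes called with overload in control mice, 10 as reported, was 19 with limma voom (27.9% of all genes called), 1 with the Y-linked share as a covariate (11.3%), 1 with log2 library total as a covariate (12.7%) and 6 without the deepest library of each group (9.62%). It was 0 without control overload libraries 2 and 3 (2.17% of all genes; 5 at an unadjusted p under 0.05) and 0 without control overload replicate 2 and control sham replicate 3 (8.29%; 9 at an unadjusted p under 0.05). Leaving out single libraries gave 3 to 24 (12.5% to 27.6% of all genes called). In cdKO mice the number was 12 as reported. It was 24 with limma voom (14.4% of all genes) and 7 with no filter on low counts (1.85%). There, leaving out single libraries gave 1 to 20 (4.93% to 15% of all genes). On average the number, 35 as reported, was 54 with limma voom (38.6% of all genes), 20 with the Y-linked share (31.5%), 11 with library total (25.2%), 9 without control overload libraries 2 and 3 (13.8%) and 16 without control overload replicate 2 and control sham replicate 3 (22.8%), and leaving out single libraries gave 20 to 50. In the averaged fits that left out a single library, 26% to 36.6% of all genes were called. The cause of these changes in number was not tested. In the other settings run the counts stayed within 1.5 times. With the replicate number as a block, 10, 15 and 36 genes were called in control mice, in cdKO mice and on average. The shares of all genes called in these fits were 21.5%, 12.7% and 33.4%. The labels do not say what these numbers share. Between genotypes and in the interaction, 0 were called in every setting run. With library total as a covariate Rpl10 was at -0.049 (adjusted p = 0.888) and Rpl22 at -0.0147 (adjusted p = 0.97). Leaving out single libraries moved the log2 ratio of Rpl22l1 to Rpl22 between -0.143 and 0.341. It was negative without control overload replicate 3 (-0.0738), cdKO sham replicate 2 (-0.143), control sham replicate 1 (-0.0382) or control sham replicate 2 (-0.0415). Of the values for single genes and ratios under alternatives, 1738 kept direction and call, 344 lost the call and 33 gained it.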

Other observations

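Nuclear genes of the mitochondrial ribosome, which translates the few proteins encoded in mitochondrial DNA, were counted in the same way. Of 78 such genes 55 were tested. In cdKO mice 3 rose and 0 fell, with a median log2 fold change of 0.48, in control mice 14 rose and 0 fell, with a median of 0.89, and on average 20 rose and 0 fell, with a median of 0.73. Of all genes, 6.37%, 10.6% and 16.8% were called higher in these comparisons, so 3 of 55 in cdKO mice is not above the share of all genes. Mrpl17, a protein of its large subunit, had 56.4, 59.1 and 60.9 CPM in cdKO overload and 66.1, 108 and 74.8 CPM in control overload libraries, against 21.6, 26.5 and 26.8 CPM in cdKO sham and 26.8, 23.9 and 32.7 CPM in control sham libraries. It changed by 1.20 in cdKO mice (edgeR adjusted p = 0.00801) and by 1.57 in control mice (adjusted p = 5.01e-04), and no sham library reached an overload library. Mrpl33 changed by 0.99 and 1.37 in the same comparisons (adjusted p = 0.0308 and 0.00199).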
